A study of Homo sapiens with 6 samples.

Results

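ABC, bile acid and organic ion transporters are the membrane proteins that carry bile acids, lipids, drugs and other organic ions into and out of liver cells. The genes described here were taken by their symbols on the array. They are the ABC genes of subfamilies A to G, the organic anion transporting polypeptides (SLCO), the bile acid and related carriers (SLC10A), the organic ion carriers (SLC22A) and the cation extruders (SLC47A). Of 18132 genes tested, 83 matched, read by 226 probe sets, the groups of short probes with which the array reads a transcript. They were 43 ABC, 12 SLCO, 7 SLC10A, 19 SLC22A and 2 SLC47A genes, and 1 of the 12 SLCO symbols, SLCO4A1-AS1, is an antisense RNA and no transporter. CFTR, TAP1 and TAP2, ABC proteins whose symbols do not start with ABC, fell outside the symbols used and are given with the partner genes.

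The samples were Huh7 cells, an established line from a human hepatocellular carcinoma, in logarithmic growth. Total RNA was measured on 3 arrays of control cells and 3 arrays of cells labelled as KCa3.1 silenced, or KCa3.1 knockdown. KCa3.1 is a calcium-activated potassium channel, and the comparison asks what differs when it is silenced; the labels do not name the silencing agent or its control. They also do not say that replicates were separate cultures, so the p-values given here speak to array-to-array spread that could be purely technical.

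Values are log2 values of the authors, set relative to a baseline of each probe set. They show differences between arrays and hold no expression level, so genes cannot be ranked by abundance, a gene near background cannot be told from a steady one, and the liver markers cannot show how hepatocyte-like the cells were. KCNN4, the gene of KCa3.1, was not lower in the arrays labelled silenced. It had values of -0.0062, 0.13 and -0.073 in control and -0.055, 0.089 and 0.011 in the other arrays, a difference of -0.00033 (SE 0.069, 95% interval -0.157 to 0.156; two-sided exact permutation p = 1, smallest possible 0.1). All directions below are therefore between arrays as labelled. Across the 83 genes, pairs of arrays under one label had Pearson correlations of 0.588 to 0.826, and pairs across labels -0.46 to -0.148. Over all probe sets these were 0.406 to 0.67 and -0.273 to 0.0676, so the split by label is not particular to the 83 genes. Values set relative to a baseline of each probe set can by themselves give correlations below 0, so these are a description. Of 8 tested hepatocyte markers 5 were higher in the arrays labelled silenced (AFP, APOA1, APOB, FGB and SERPINA1), beside 7.14% of all genes. ALB and TTR did not pass (0.16 and 0.06), nor did TF, which differed the other way (-0.19), and the mean over the 8 lay between -0.263 and -0.198 in control and between 0.128 and 0.132 in the other arrays. Of 9 fibroblast, leukocyte and endothelial markers 1 was higher, COL1A2. The part of these shifts in the results below was not tested. The arrays read bulk extracts, so more cells with a transcript and more transcript per cell cannot be told apart.

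Hepatocytes take up bile acids and other organic ions from blood at their sinusoidal side through SLC10A1, SLCO and SLC22A carriers. They export bile acids, phospholipid, cholesterol and conjugates into bile at their canalicular side, mostly through ABC pumps that use ATP, and send some back to blood through other ABC pumps. Further ABC proteins load lipoproteins with cholesterol, serve peroxisomes and mitochondria, or act in the cytosol without carrying anything across a membrane.

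In the arrays labelled silenced, 10 of 19 tested export and uptake genes of the liver cell were higher and 9 did not pass. That is 52.6% higher beside 7.14% of all genes. These genes were listed with earlier results of these arrays known, so this share is a description. The higher genes included ABCG2, SLC47A1, ABCB4, ABCC2 and ABCB1 of the canalicular side and SLC22A9 and SLCO2B1 of the sinusoidal side, while the bile salt pump gene ABCB11 and the bile acid uptake gene SLC10A1 did not pass. Of the 83 genes, 16 changed, 13 higher and 3 lower, and 67 did not pass the test (limma adjusted p under 0.05). That is 19.3% of the transporter genes beside 13.3% of all genes tested. Higher were 15.7% beside 7.14% of all genes, and lower were 3.61% beside 6.19%. The median difference was 0.01 over the 83 genes and -0.0058 over all genes. Changes of at least 1.5-fold were called in 7 of the 83, beside 2.51% of all genes. In 30 of the 83 (36.1%) no control array reached into the range of the other group, beside 29.3% of all genes. All 13 higher genes were read by 2 or more probe sets, and all 3 lower genes by 1. Among the 83 genes, 63 were read by 2 or more probe sets (20.6% called) and 20 by 1 (15% called). The lower call of ABCC6P1 was lost in 9 of the 14 alternative settings run for it. Whether direction goes with the number of probe sets was not tested.

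**Figure D1:**
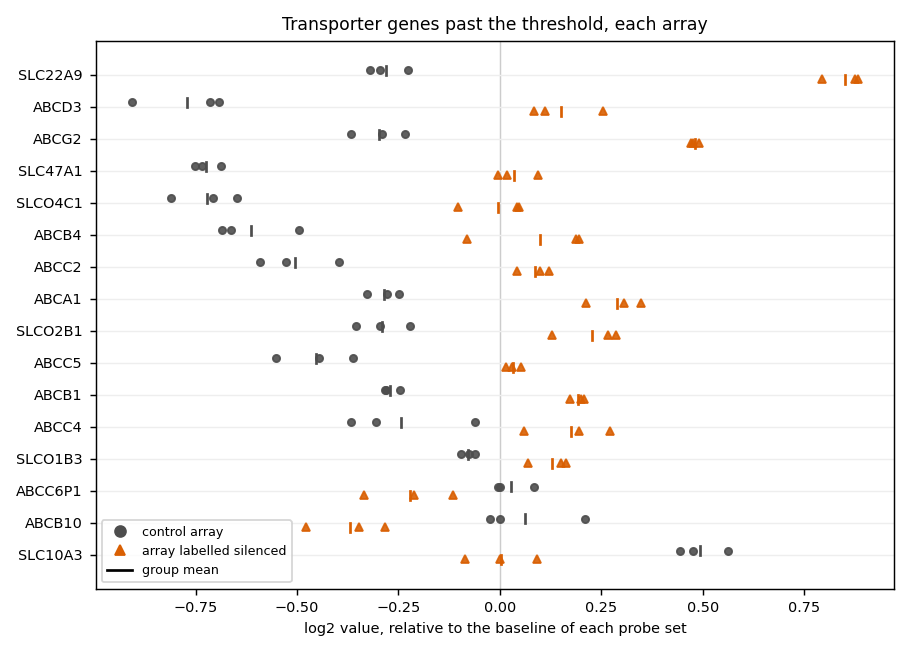
Log2 values of the 16 transporter genes past the threshold on each of the 6 arrays, relative to the baseline of each probe set; circles are control arrays, triangles arrays labelled silenced, and ticks the group means. The groups do not overlap in any of the 16 genes, and the widest distance is in SLC22A9, from -0.28 to 0.85 on average.

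The stretches before the starts of 4 called genes are shown to place the called genes in their sequence context. They belong to the 3 largest rises and the largest fall among genes called under every alternative that could be run for them and with 1 start in the RefSeq promoter table, which is on GRCh38.p14. They are SLCO4C1 at chr5:102296285-102296534 on the minus strand, ABCC2 at chr10:99782390-99782639 on the plus strand, ABCA1 at chr9:104928156-104928405 on the minus strand and SLC10A3 at chrX:154490630-154490879 on the minus strand. Each run holds the 250 bases before the start, 5′ to 3′ on the gene's strand, and capitals mark letters that match the core of the antioxidant response element (TGACNNNGC), a nuclear receptor site (AGGTCA), the E-box (CACGTG), the CCAAT box, the TATA box (TATAAA) or the GC box (GGGCGG) on either strand.
SLCO4C1: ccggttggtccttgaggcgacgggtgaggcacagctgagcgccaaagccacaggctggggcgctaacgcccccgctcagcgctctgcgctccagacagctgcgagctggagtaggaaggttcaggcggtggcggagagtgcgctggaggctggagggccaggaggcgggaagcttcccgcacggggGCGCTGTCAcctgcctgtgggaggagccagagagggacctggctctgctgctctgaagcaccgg
ABCC2: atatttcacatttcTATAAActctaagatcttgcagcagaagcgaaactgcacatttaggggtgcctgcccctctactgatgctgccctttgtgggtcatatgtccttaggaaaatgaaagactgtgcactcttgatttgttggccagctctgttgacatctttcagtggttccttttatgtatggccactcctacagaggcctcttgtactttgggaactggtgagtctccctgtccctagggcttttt
ABCA1: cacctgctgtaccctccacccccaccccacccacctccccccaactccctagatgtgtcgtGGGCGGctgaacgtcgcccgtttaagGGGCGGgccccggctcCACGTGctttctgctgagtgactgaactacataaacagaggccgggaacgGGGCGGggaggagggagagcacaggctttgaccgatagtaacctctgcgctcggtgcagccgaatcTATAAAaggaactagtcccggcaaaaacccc
SLC10A3: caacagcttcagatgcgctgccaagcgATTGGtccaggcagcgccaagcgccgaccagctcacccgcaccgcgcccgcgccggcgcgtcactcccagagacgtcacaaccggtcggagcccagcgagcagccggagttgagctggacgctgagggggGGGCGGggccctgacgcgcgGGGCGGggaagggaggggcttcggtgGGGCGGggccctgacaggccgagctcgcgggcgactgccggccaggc

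ABCA1 held 3 GC boxes, an E-box from base 147 to 142 before the start and TATAAA from base 31 to 26. SLC10A3 held 3 GC boxes and a CCAAT match on the other strand. SLCO4C1 held a match to the antioxidant core on the other strand, from base 64 to 56, and ABCC2 TATAAA from base 236 to 231. No motif was found in all 4 stretches. In the 60 members with a promoter in the table, 250 bases before to 50 after the start, the antioxidant core was found in 15% beside 13.6% of all 27305 promoters, AGGTCA in 11.7% beside 13.9%, and CACGTG in 8.33% beside 7.43%. CCAAT was found in 26.7% beside 35.7%, TATAAA in 18.3% beside 12% and GGGCGG in 43.3% beside 44.6%. Matches with different motifs can overlap, and a match is no proof of a bound factor.

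Of 8 tested genes of canalicular export, 5 were higher (62.5% beside 7.14% of all genes) and 3 did not pass. ABCG2 encodes a pump for urate, porphyrins and many drugs. Its values were -0.23, -0.37 and -0.29 in control and 0.49, 0.47 and 0.48 in the arrays labelled silenced. All 3 of the latter lay above all controls, and they differed by less than the controls did. The rise was 0.78 (1.71-fold, SE 0.056, limma adjusted p = 4.5e-05), and both probe sets were higher, by 0.42 and 1.13.

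SLC47A1 encodes the extruder of organic cations that exchanges them for protons. Its values were -0.75, -0.69 and -0.74 in control and 0.095, -0.0050 and 0.018 in the arrays labelled silenced, with no overlap. It rose by 0.76 (1.69-fold, SE 0.055, limma adjusted p = 4.6e-05). Of its 6 probe sets 4 were higher, with rises between 0.48 and 1.35, and the other 2 differed by 0.07 and 0.14 and did not pass. Its relative SLC47A2, with 1 probe set, did not pass (difference -0.11).

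ABCB4, which moves phosphatidylcholine into bile, read -0.49, -0.69 and -0.66 in control and 0.19, 0.19 and -0.08 in the arrays labelled silenced. The lowest of the latter, replicate 3, still lay above all controls. The rise was 0.71 (1.64-fold, SE 0.089, limma adjusted p = 0.00088), with both probe sets higher. ABCB1, the multidrug pump P-glycoprotein, lies beside ABCB4 in the genome and read -0.25, -0.28 and -0.28 in control and 0.20, 0.21 and 0.17 in the other arrays. Its groups were far apart for their spread, with a rise of 0.46 (1.38-fold, SE 0.051, limma adjusted p = 0.00043). Of its 4 probe sets 2 rose by 0.86 and 0.99, and the other 2 differed by -0.04 and 0.05 and did not pass. ABCB1 and ABCB4 are similar in sequence, and how far their probes read each other was not tested.

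ABCC2 exports conjugated bilirubin and glutathione conjugates. Its values were -0.40, -0.53 and -0.59 in control and 0.12, 0.10 and 0.04 in the arrays labelled silenced, without overlap. It rose by 0.59 (1.51-fold, SE 0.065, limma adjusted p = 0.00043), and its probe sets rose by 0.55 and 0.63.

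The pump of bile salts itself, ABCB11, did not pass. It was read by 1 probe set, with values of 0.34, 0 and -0.10 in control and 0.15, 0.21 and 0.05 in the arrays labelled silenced, so the groups overlapped. It differed by 0.06 (95% interval -0.182 to 0.302). ABCG5 and ABCG8, neighbouring genes whose products pair to export sterols, differed by -0.06 (95% interval -0.195 to 0.083) and 0.0038 (-0.165 to 0.172). Neither passed, and each was read by 1 probe set.

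Of 4 tested genes of export back to blood, 2 were higher (50% beside 7.14% of all genes) and 2 did not pass. ABCC6 is not analysed here. ABCC5, which exports cyclic nucleotides and other organic anions, read -0.45, -0.36 and -0.55 in control and 0.02, 0.05 and 0.03 in the arrays labelled silenced. The latter lay close together and above all controls. It rose by 0.49 (1.4-fold, SE 0.062, limma adjusted p = 0.001). Its 4 probe sets ranged widely: 1 rose by 1.18 and 1 by 0.37, and 2 with differences of 0.19 and 0.21 did not pass.

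ABCC4 exports bile acids together with glutathione, and also cyclic nucleotides. Its values were -0.37, -0.31 and -0.06 in control and 0.27, 0.06 and 0.20 in the arrays labelled silenced. The groups did not overlap, but control replicate 3 lay near silenced replicate 2. It rose by 0.42 (1.34-fold, SE 0.090, limma adjusted p = 0.015). The call was lost without control replicate 2, silenced replicate 1 or silenced replicate 3 and with the most variable probe set (limma adjusted p up to 0.063, with changes between 0.36 and 0.51 over all alternatives). All 4 probe sets lay above 0, between 0.38 and 0.46, and 1 of them passed by itself.

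ABCC1, which exports glutathione conjugates, read -0.14, -0.16 and -0.13 in control and 0, 0.05 and 0.05 in the other arrays. These groups did not overlap, yet the difference of 0.18 missed the threshold (SE 0.051, limma adjusted p = 0.054). It passed with the median over probe sets, with array weights and without probe sets at exact 0 on 2 or more arrays. ABCC3, a pump of glucuronides and bile acids, did not pass, with a difference of -0.03 (95% interval -0.158 to 0.103).

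Of 7 tested genes of uptake from blood, 3 were higher (42.9% beside 7.14% of all genes) and 4 did not pass. SLC22A9 encodes a liver carrier of organic anions such as sulfated steroids. It had the largest change of the 83 genes, with values of -0.30, -0.23 and -0.32 in control and 0.88, 0.79 and 0.88 in the arrays labelled silenced. The gap between the groups was many times the spread within them. SLC22A9 rose by 1.13 (2.19-fold, SE 0.056, limma adjusted p = 7e-06), and its probe sets rose by 1.00 and 1.26. It lies in a row of SLC22A genes, and its neighbour SLC22A10 differed by 0.10 and SLC22A25, next to that, by 0.13; neither passed.

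SLCO2B1, a carrier of sulfated steroids and drugs, read -0.29, -0.35 and -0.22 in control and 0.29, 0.13 and 0.27 in the arrays labelled silenced. All of the latter were higher than all controls. It rose by 0.52 (1.43-fold, SE 0.065, limma adjusted p = 0.00095). Of its 7 probe sets 5 were higher, by 0.31 to 1.15, and 2 did not pass, with differences of 0.05 and 0.30.

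SLCO1B3 takes up bilirubin, bile acids and drugs. Its values were -0.10, -0.08 and -0.06 in control and 0.16, 0.07 and 0.15 in the arrays labelled silenced. The groups stood apart by a small step, with a rise of 0.21 (1.15-fold, SE 0.054, limma adjusted p = 0.036). The call was lost without any of the 3 control replicates in turn and without silenced replicate 1 or 3 (limma adjusted p up to 0.13). It was also lost with probe sets lacking the endings _s_at, _x_at and _a_at (limma adjusted p = 0.11). Both probe sets of SLCO1B3 lack those endings, so its own difference was unchanged there and only the fit over the other genes differed. Of its 2 probe sets 1 rose by 0.37, and the other differed by 0.04.

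SLCO1B1, close to SLCO1B3 in sequence and in what it carries, had values of -0.08, -0.31 and 0 in control and 0.24, 0.19 and 0.03 in the other arrays. Its groups did not overlap, but their spread was wide and the difference of 0.28 did not pass (SE 0.091, 95% interval 0.078 to 0.49, limma adjusted p = 0.079). SLC10A1, the sodium-dependent bile acid carrier and the receptor by which hepatitis B virus enters hepatocytes, read 0, 0.15 and 0.02 in control and -0.20, 0.33 and 0.06 in the arrays labelled silenced. The spread of the latter covered all controls, and the difference was 0.0096 (95% interval -0.257 to 0.276). SLCO1A2, a carrier of bile acids and other organic anions, differed by 0.0091 (-0.158 to 0.176) and SLC22A7, a carrier of small organic anions, by -0.04 (-0.213 to 0.13). None of these 4 passed.

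**Figure D2:**
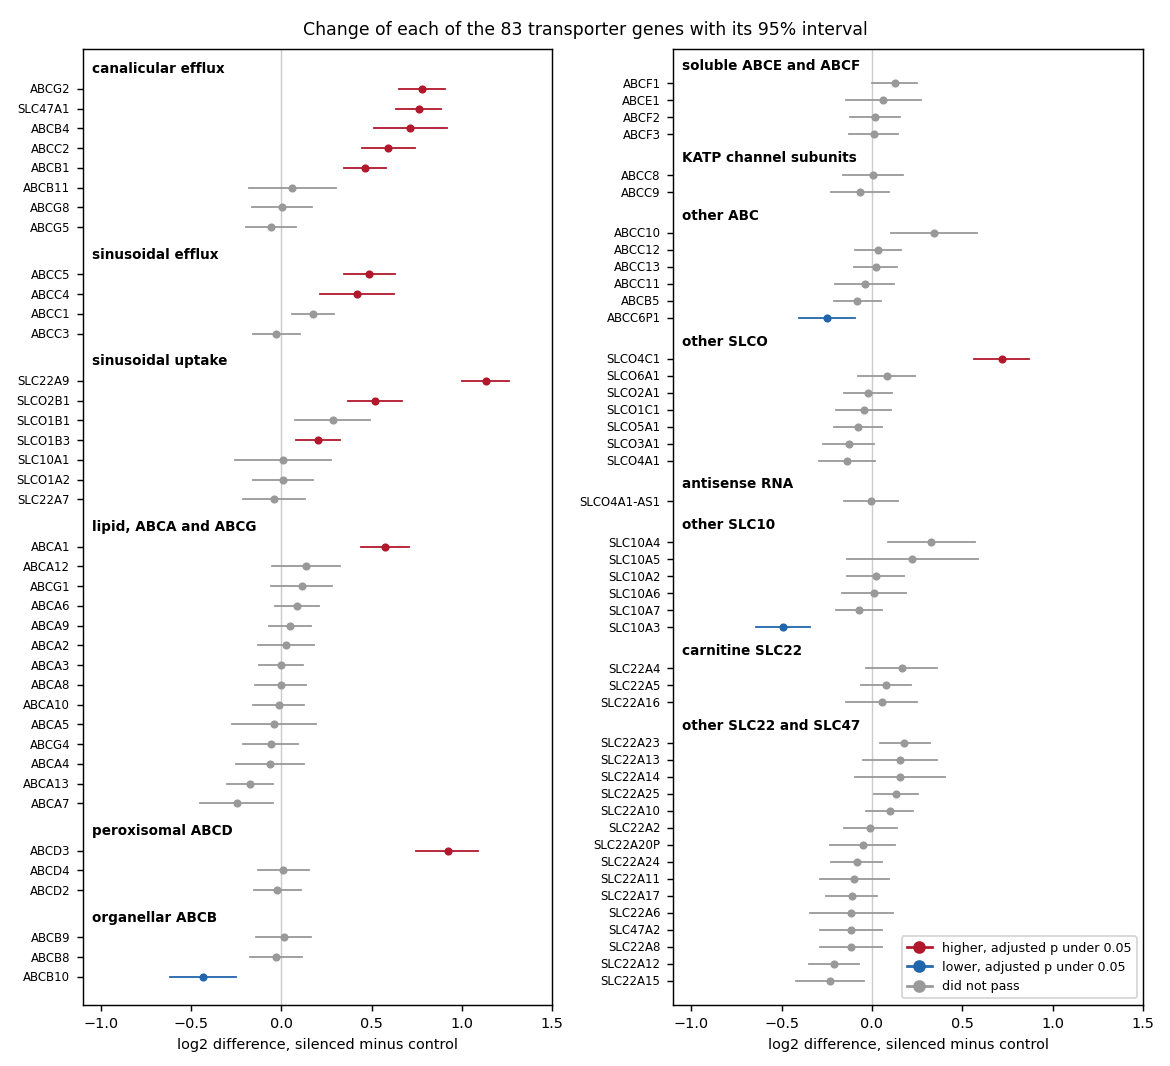
Log2 difference, silenced minus control, of each of the 83 genes with its 95% interval from limma, grouped by role; red genes were higher, blue genes lower, and grey genes did not pass. In the upper left the canalicular, sinusoidal export and uptake groups hold 10 of the 13 higher genes, and the other SLC22 and SLC47 genes at the lower right hold no called gene.

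The 3 liver groups together held 19 tested genes, 10 of them higher and 9 not passing, with a median difference of 0.28. The other 64 genes held 3 higher and 3 lower genes, 9.38% beside 13.3% of all genes, with a median of -0.0024. The groups were drawn up from textbook roles with earlier results of these arrays known, so their shares are a description.

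Among 14 tested ABCA genes and other lipid transporters of the ABCG kind, ABCA1 was higher and 13 did not pass. ABCA1 hands cholesterol and phospholipid to apolipoprotein A-I. It read -0.25, -0.33 and -0.28 in control and 0.35, 0.31 and 0.21 in the arrays labelled silenced. There was no overlap, and ABCA1 rose by 0.57 (1.49-fold, SE 0.058, limma adjusted p = 0.0003). Of its probe sets 2 rose by 0.82 and 0.86, and the third differed by 0.05. ABCG1, which exports cholesterol to formed lipoproteins, differed by 0.11 and did not pass. The other 12, ABCA2 to ABCA10 and ABCA12, ABCA13 and ABCG4, had differences between -0.25 and 0.14. Of these, ABCA5, ABCA6, ABCA8, ABCA9 and ABCA10 stand in a row in the genome, and their differences lay between -0.04 and 0.09.

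ABCD3, the peroxisomal carrier of branched-chain acids and bile acid intermediates, was higher, and ABCD2 and ABCD4 did not pass (-0.02 and 0.01). Its values were -0.71, -0.91 and -0.69 in control and 0.26, 0.08 and 0.11 in the arrays labelled silenced. The groups lay well apart, with a rise of 0.92 (1.89-fold, SE 0.076, limma adjusted p = 1e-04). Of 5 probe sets 4 rose by 0.70 to 1.31. The fifth differed by 0.25 and did not pass, and it was the only probe set of ABCD3 kept when those with the name endings _s_at, _x_at and _a_at were left out, where the adjusted p of limma was 0.38.

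ABCB10, an ABC protein of the inner mitochondrial membrane, was lower. It read -0.02, 0 and 0.21 in control and -0.35, -0.48 and -0.28 in the arrays labelled silenced. Control replicate 3 stood above the other controls, and the groups did not overlap. ABCB10 fell by 0.43 on the log2 scale (1.35-fold, SE 0.080, limma adjusted p = 0.0074), on 1 probe set of the kind that can match other transcripts. ABCB8, also mitochondrial, and ABCB9, a lysosomal peptide carrier, differed by -0.03 and 0.01 and did not pass.

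SLC10A3, a member of the bile acid carrier family with no settled substrate, was lower. Its values were 0.44, 0.56 and 0.48 in control and 0.09, 0 and -0.09 in the arrays labelled silenced, without overlap. It fell by 0.49 on the log2 scale (1.41-fold, SE 0.065, limma adjusted p = 0.0012), on 1 probe set. SLC10A2, the bile acid carrier of the gut, and SLC10A4 to SLC10A7 did not pass, with differences between -0.07 and 0.33.

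SLCO4C1, an organic anion carrier best known from the kidney, read -0.65, -0.71 and -0.81 in control and 0.05, 0.04 and -0.10 in the arrays labelled silenced. The lowest of the latter lay far above all controls. It rose by 0.72 (1.65-fold, SE 0.068, limma adjusted p = 0.00019), with 1 probe set at 1.28 and 1 at 0.16 that did not pass. Its neighbour SLCO6A1 differed by 0.08, and the other SLCO genes, SLCO1C1, SLCO2A1, the prostaglandin carrier, SLCO3A1, SLCO4A1 and SLCO5A1, by -0.14 to -0.02. None of these passed. SLCO4A1-AS1 differed by -0.0047, and the array files do not state how strands were told apart.

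ABCC6P1, a pseudogene of ABCC6, was lower, with values of 0, 0.08 and -0.0035 in control and -0.21, -0.34 and -0.12 in the arrays labelled silenced. The groups did not overlap, and it fell by 0.25 on the log2 scale (1.19-fold, SE 0.068, limma adjusted p = 0.044). The call was lost without any of the 3 control replicates in turn or without silenced replicate 1 or 2 (limma adjusted p up to 0.14). It was also lost with array weights (0.066), the most variable probe set (0.1) and no probe sets ending in _s_at and _x_at (0.054). Its only probe set was kept under both of these choices of probe sets, so its own difference was unchanged there. That probe set did not pass in the test over probe sets. A pseudogene shares sequence with its parent gene, so the value is uncertain. Of the other ABCC and ABCB genes, ABCB5, ABCC10, ABCC11, ABCC12 and ABCC13 did not pass, with differences between -0.08 and 0.34.

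Several groups held no called gene (0 by limma). Over all genes, called or not, 24.6% had an unadjusted p under 0.05. The cytosolic ATP-binding proteins ABCE1, ABCF1, ABCF2 and ABCF3, which act in translation and ribosome recycling, differed by 0.01 to 0.13, with 1 of 4 at an unadjusted p under 0.05. ABCC8 and ABCC9, the sulfonylurea receptors of ATP-sensitive potassium channels, differed by 0.0062 and -0.06, and 0 of 2 had an unadjusted p under 0.05. The carnitine and organic cation carriers SLC22A4, SLC22A5 and SLC22A16 differed by 0.06 to 0.17, again with 0 of 3. The other SLC22A genes, SLC22A2, SLC22A6, SLC22A8, SLC22A10 to SLC22A15, SLC22A17, SLC22A20P and SLC22A23 to SLC22A25, lay with SLC47A2 between -0.23 and 0.18, with 4 of these 15 at an unadjusted p under 0.05. Many of these are carriers of the kidney, such as SLC22A6 and SLC22A8 for organic anions and SLC22A12 for urate.

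Of the 67 genes that did not pass, 66 had a 95% interval within 1.5-fold in either direction. The exception was SLC10A5, whose interval reached 0.587 on the log2 scale. In 14 of the 67 (20.9%) the groups did not overlap, beside 18.5% of all 15714 genes that did not pass. An unadjusted p under 0.05 was found in 11 (16.4%), beside 13% of those genes.

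**Figure D3:**
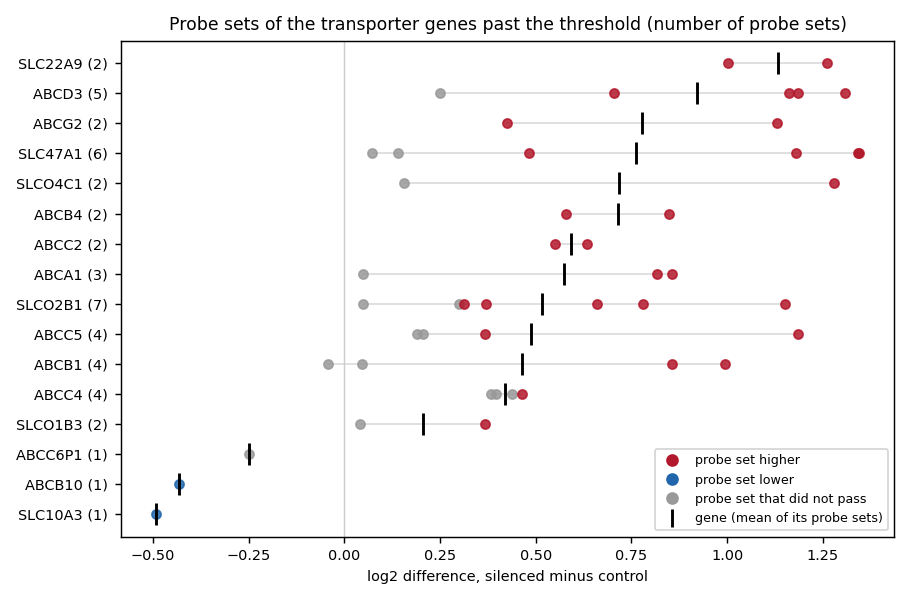
Log2 difference, silenced minus control, of every probe set of the 16 called genes (circles, coloured by the test over probe sets) with the gene's mean over probe sets (tick); the number after a name is its number of probe sets. SLC22A9, ABCG2, ABCB4 and ABCC2 are higher in all their probe sets, while SLC47A1, ABCA1, ABCB1, SLCO2B1 and SLCO1B3 also hold probe sets near 0.

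Tested by themselves, 36 of the 226 probe sets changed, 32 higher and 4 lower, which is 15.9% beside 10.7% of all probe sets. Every probe set was higher in SLC22A9, ABCG2, ABCB4 and ABCC2. In the other 9 genes called higher, some probe sets passed and others did not, so the mean over probe sets lay below the larger values: SLC47A1 reached 1.35, ABCD3 1.31, SLCO4C1 1.28, ABCC5 1.18, SLCO2B1 1.15 and ABCB1 0.99. No called gene (0 of 16, limma) held probe sets past the threshold in both directions. Single probe sets also passed in ABCA7 and SLC22A15 (lower) and in ABCC1 and SLC22A23 (higher), whose gene means did not.

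Genes that make, sense or escort what these transporters carry were read from 4 lists, on which 79 genes were tested and 21 changed, 12 higher and 9 lower. That is 26.6% beside 13.3% of all genes, with 15.2% higher beside 7.14% and 11.4% lower beside 6.19%. The lists were also drawn up with earlier results known. Of 21 genes of bile acid synthesis and conjugation 4 were higher, 3 lower and 14 did not pass. That is 19% higher beside 7.14% of all genes, and 14.3% lower beside 6.19%. SULT2A1, which sulfates bile acids and steroids, rose by 2.42, and SLC27A2, an acyl-CoA synthetase of bile acid and fatty acid metabolism, rose by 1.44, from -0.52, -0.67 and -0.68 in control to 0.76, 0.75 and 0.93. AKR1C4, a reductase of steroids and bile acid intermediates, rose by 0.65. BAAT, which joins bile acids to glycine or taurine, fell by 1.18 on the log2 scale (2.26-fold, SE 0.059, limma adjusted p = 7.2e-06), from 1.08, 1.20 and 1.25 in control. CYP7A1, the rate-limiting enzyme of bile acid synthesis, did not pass (-0.03).

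**Figure D4:**
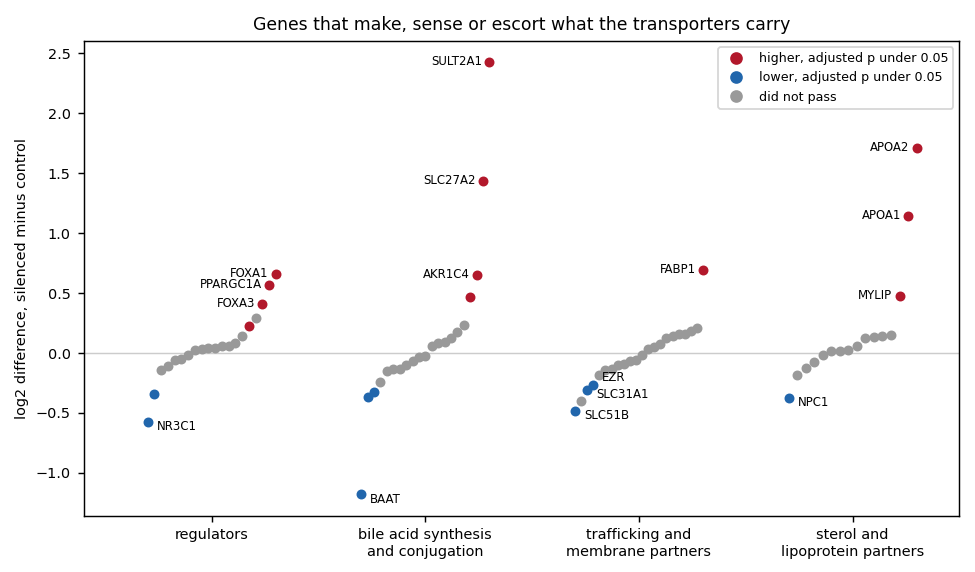
Log2 difference, silenced minus control, of the 79 tested genes on 4 lists of partner genes, sorted within each list; red genes were higher, blue genes lower and grey genes did not pass, and the 4 largest called changes of each list are named. SULT2A1 and SLC27A2 stand highest in the list of bile acid synthesis and conjugation, in which BAAT stands lowest.

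Of 20 regulators of these transporters 4 were higher, 2 lower and 14 did not pass. That is 20% higher beside 7.14% of all genes, and 10% lower beside 6.19%. FOXA1 and FOXA3, which open liver chromatin, rose by 0.66 and 0.41, and the coactivator gene PPARGC1A rose by 0.57. NR3C1, the glucocorticoid receptor, fell by 0.57 on the log2 scale. NFE2L2, the factor that acts through the antioxidant element, did not pass (0.29, limma adjusted p = 0.071).

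The 22 trafficking and membrane partners held 1 higher and 3 lower genes, 18.2% called beside 13.3% of all genes. Higher were 4.55% beside 7.14% of all genes, and lower were 13.6% beside 6.19%. CFTR, TAP1 and TAP2 were among the 18 that missed the threshold, with differences of 0.13, -0.07 and 0.05. FABP1, which binds fatty acids and bile acids in the cytosol, rose by 0.69. SLC51B, a subunit of the sinusoidal bile acid exporter, fell by 0.48 on the log2 scale, a call lost without control replicate 2 or 3 and without probe sets ending in _s_at and _x_at, with or without those in _a_at. EZR, the ezrin gene, fell by 0.27 and SLC31A1, a copper importer, fell by 0.31 on that scale. Both calls were lost without control replicate 2 or 3, without any silenced replicate in turn and with the median over probe sets, among other settings. Of 16 sterol and lipoprotein partners 3 were higher, 1 was lower and 12 did not pass. That is 18.8% higher beside 7.14% of all genes, and 6.25% lower beside 6.19%. APOA2 and APOA1, the main proteins of high-density lipoprotein, rose by 1.71 and 1.14, the latter being the acceptor of the lipid that ABCA1 exports. MYLIP, whose product marks lipoprotein receptors for degradation, rose by 0.48 (not called with the median over probe sets or without those ending in _s_at and _x_at), and NPC1, the lysosomal cholesterol exporter, fell by 0.37 on the log2 scale.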

How the data were processed

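The authors deposited log2 values made with RMA, per the submitters' processing notes; its settings and version, and the centring seen in the values, are not given in the sources used here. Base 2 is assumed because RMA normally writes it. Each of the 6 arrays had a median of 0. The centring cancels in differences, all silenced minus control. The number of arrays, 3 in each group, limits the precision.

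Of 49395 probe sets, 102 controls were left out. Of the other 49293, 44988 carried 1 symbol, 1832 several and 2473 none here. Single-symbol probe sets were averaged per gene (18132 genes). The fit had group as its term (lmFit, then eBayes; limma 3.58.1 under R 4.3.3), with Benjamini-Hochberg adjustment over all genes, or over all probe sets. The fit was tested on simulated data with 100 changed genes among 18132. It called 81% of them at a change of 0.5 and 99% at a change of 1. In each case 9 unchanged genes were also called. The members and lists were chosen with earlier results of these data known. Named were KCNN4, every called transporter gene and the liver role genes whatever their test. Up to 4 called genes of each partner list were named by size. Further names came from accounting for every member. The partner genes CYP7A1, NFE2L2, CFTR, TAP1 and TAP2 were named outside this rule, and none of them was called. Alternatives covered the summary of probe sets, normalisation, tied zeros, variance model, array weights, a replicate block and leaving out each array. Protein features were not analysed here.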

Additional observations from a re-analysis of the deposited data

Results flagged for a closer look

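Probe sets with several symbols were kept out of the gene table. Among 8 of these that name a transporter of this kind, 1 passed the test, beside 10.7% of all probe sets. It is shared by ABCB6, a mitochondrial and membrane ABC protein, and ATG9A, an autophagy gene, and it rose by 0.30 (SE 0.067, limma adjusted p = 0.024 over all probe sets), from -0.31, -0.21 and -0.29 in control to 0.10, -0.015 and 0 in the arrays labelled silenced. The other 4 probe sets of this gene pair did not pass, with differences between 0.01 and 0.25. Which of the pair it reads was not tested.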

How the results depend on the processing

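Of the 16 called transporter genes, 12 were called in every alternative that could be run for them, among 15 refits. The exceptions were ABCD3, ABCC4, SLCO1B3 and ABCC6P1. With probe sets lacking the endings _s_at, _x_at and _a_at, which left 38 of the 83 genes and 8354 of all genes, 5 transporter genes were called, 5 higher and 0 lower by limma (4 lower at an unadjusted p under 0.05), and over all genes 565, 330 higher and 235 lower, and 8 partner genes. In an alternative added after seeing the data, which left out the endings _s_at and _x_at, 14 of 81 were called, 13 higher and 1 lower. With a fold change of at least 1.5 the count was 7, and with at least 2 over all genes 118. Without each replicate in turn, the transporter count lay between 14 and 15, and lower calls over all genes between 736 and 1167. The latter were 745 when control replicate 3 was dropped, 736 for silenced replicate 2 and 747 for silenced replicate 3. No called value changed sign. The replicate numbers did not pair the arrays (correlations of deviations -0.096, -0.0694 and -0.0397); with the replicate block 14 of the 83 and 2065 of all genes were called, and SLCO1B3 (limma adjusted p = 0.097), ABCC6P1 (0.082) and the partner gene EZR (0.062) lost their calls. KCNN4 lay between -0.045 and 0.055 in the alternatives run for it, which leave out both restrictions by probe set ending. Without stated levels, a filter on dim probe sets was not run.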
